A study of Danio rerio with 4 samples.

Results

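The genes of synaptic vesicle release were followed in whole zebrafish (Danio rerio) embryos mutant for tubgcp6, whose protein belongs to the gamma-tubulin ring complex, the template from which microtubules grow. Members were all genes of the count table whose names begin with syt, stx, stxbp, vamp, cplx, snap or rims and a digit, or with sv2, and that held at least 20 reads over the 4 libraries. Of 85 such names 83 reached that total, out of 23236 rows in the table. Just inside the limit were stx1a, with 38 reads in all, and cplx3a, with 40, and outside it were cplx4b, with 18 reads, and syt19, with 12. All 83 members also passed the filter on low counts and were tested. Together they took 0.340% and 0.343% of reads in mutants and 0.381% and 0.395% of reads in siblings.

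The mutants and their siblings, of the AB strain, came from intercrosses of tubgcp6 heterozygotes, were sorted by genotype at 7 days post fertilisation and received no treatment. Each group had 2 libraries, titled as biological replicates. The lesion in tubgcp6, the genotypes among the siblings, the number of embryos in a library and the sharing of clutches were not given in the sources used here, so every p-value below rests on the spread among the 4 libraries alone, which may be technical in part.

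A synaptic vesicle fuses when the vesicle SNARE synaptobrevin (VAMP) zips up with syntaxin and SNAP-25 in the plasma membrane. RIM proteins anchor vesicles and calcium channels at the active zone, and complexins hold the partly zipped complex until a synaptotagmin binds calcium. Photoreceptors, bipolar cells and hair cells release vesicles from ribbon synapses, which use partly different family members, among them complexins 3 and 4 in the mammalian retina. Other syntaxins, VAMPs and SNAP-25 relatives carry out fusion at the Golgi, endosomes, autophagosomes and the plasma membrane of cells in general. By these roles 38 members were placed as neuronal and retinal exocytosis genes, 27 as general trafficking genes and 18 as genes with a wider, mixed or less settled role. This placing came from general knowledge, mostly of mammals, and was made with earlier results of these data known.

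Total reads assigned to genes lay between 14246582 and 20652276 per library. The mutated gene tubgcp6 itself had 510 and 531 reads in mutants, against 498 and 803 in siblings. In CPM (a count scaled to a common library size) it had 30.15 and 29.24 in mutants, against 35.28 and 38.94 in siblings. Its log2 fold change (mutant over sibling, as throughout) was -0.33 ± 0.10 (SE, adjusted p = 0.0123). That call was lost in DESeq2 and without sibling replicate 2, with adjusted p between 0.00273 and 0.267 over the alternatives tried. Neurons were read in every library. The early neuronal RNA-binding protein gene elavl3 had 165 and 194 CPM in mutants, against 265 and 292 CPM in siblings.

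Mutant embryos had lower RNA levels of most neuronal release genes and higher levels of many general trafficking genes. Of the 38 neuronal and retinal members, 21 were lower and 2 higher in mutants at an adjusted p under 0.05, which is 55.3% lower, beside 21.0% of all 20097 genes tested, and 5.26% higher, beside 22.9% of all genes. Of the 27 trafficking members, 13 were higher and 1 lower, which is 48.1% higher and 3.70% lower, beside the same 22.9% and 21.0%. Of the 18 members of mixed role, 8 were lower and 1 higher. The median log2 fold change was -0.38 for the neuronal members, -0.31 for the mixed members and 0.25 for the trafficking members, beside 0.007 for all genes tested. These shares and medians describe the 3 classes and were not themselves tested.

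The fall of the neuronal members held when libraries were left out, and the rise of the trafficking members held less well. Without sibling replicate 2, 15 neuronal members were lower, or 39.5% beside 11.9% of all genes, but only 4 trafficking members were higher, or 14.8% beside 14.6% of all genes, a share at the background. Without sibling replicate 1, 19 neuronal members were lower, or 50% beside 14.8%, and 8 trafficking members were higher, or 29.6% beside 17.2%. DESeq2 called 18 neuronal members lower (47.4% beside 14.1%) and 6 trafficking members higher (22.2% beside 15.5%). In all, 46 of 83 members were called in 1 direction or the other, beside 43.9% of all genes. Of these, 21 kept their call in each of the 9 alternatives tried: 15 lower neuronal members, 2 lower mixed members and 4 higher trafficking members. The share of all called genes that kept their call is not given here, so such counts cannot be read as high or low.

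**Figure D1:**
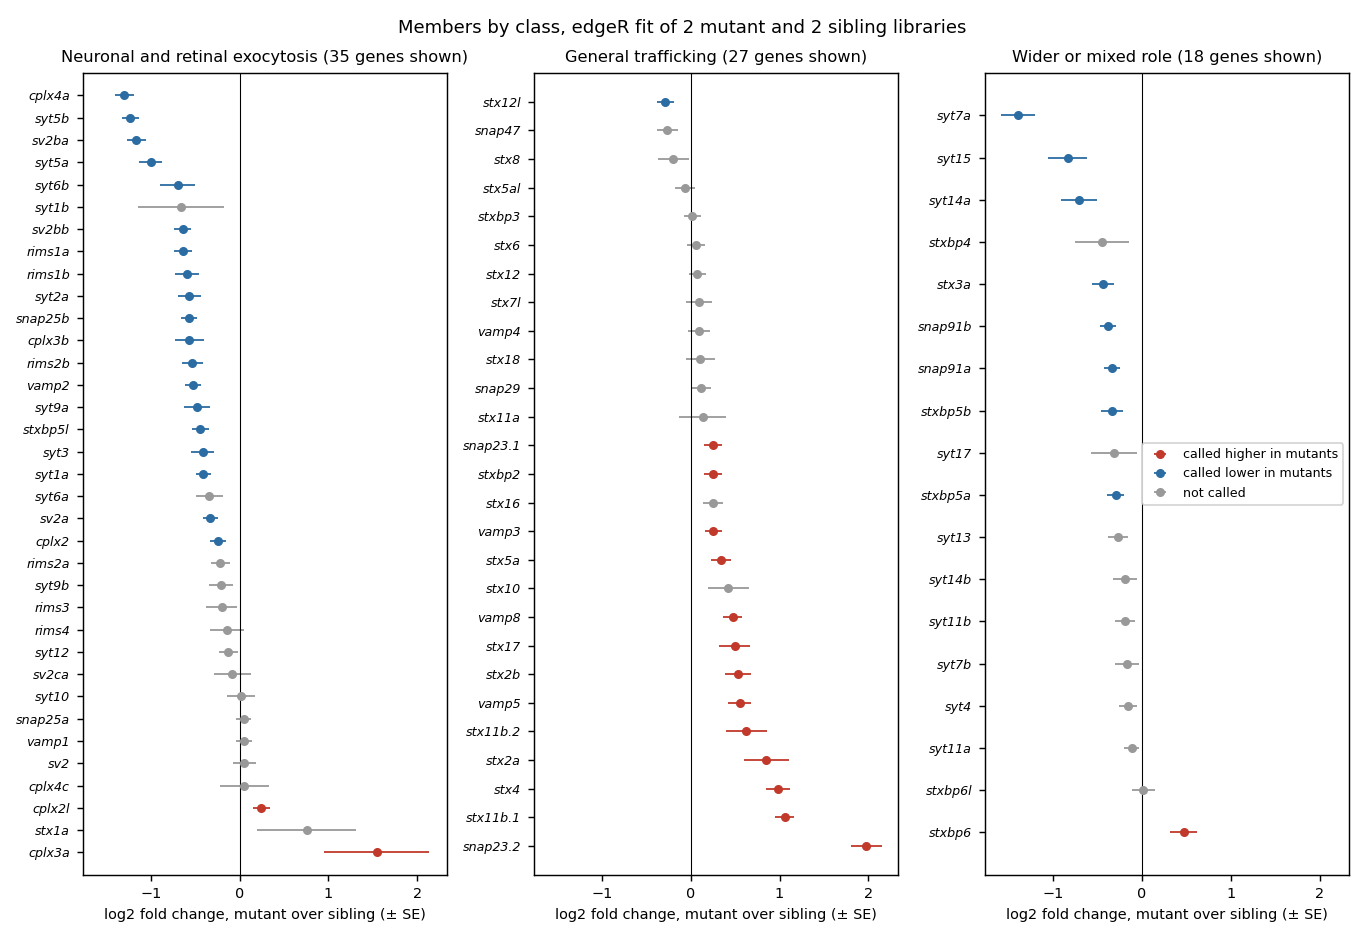
Log2 fold change (mutant over sibling) of 80 of the 83 members, with its SE as the bar, in the 3 classes; blue marks genes called lower in mutants, red genes called higher and grey genes not called. The 35 neuronal members shown reach from -1.30 to 1.54 with 27 below 0, and the trafficking members from -0.29 to 1.98 with 23 of 27 above 0. Of all 20097 genes tested, 9917 were below 0 and 10180 above.

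Genes of tomosyns, which compete with synaptobrevin for syntaxin, were called lower by modest amounts. The gene of tomosyn-2, stxbp5l, had 38.8 and 37.9 CPM in mutants, against 50.1 and 53.8 CPM in siblings (log2 fold change -0.44 ± 0.10, adjusted p = 0.000477). The tomosyn-1 copies stxbp5a (-0.29 ± 0.10, adjusted p = 0.0155) and stxbp5b (-0.33 ± 0.12, adjusted p = 0.0305) were called lower, but stxbp5a lost the call in 3 of the 9 alternatives, with adjusted p up to 0.216 without sibling replicate 2, and stxbp5b in 4, with adjusted p up to 0.397 without sibling replicate 1. The gene of amisyn, stxbp6, a further syntaxin-binding protein, stood at 0.47 ± 0.15 (adjusted p = 0.0131), a call lost in 4 alternatives (adjusted p up to 0.124 without sibling replicate 2), and its relative stxbp6l at 0.02 ± 0.13 was not called. The gene stxbp4 was not called either.

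Among complexins, the copies parted. The complexin 4 copy cplx4a had 20.6 and 18.3 CPM in mutants, against 46.6 and 48.7 CPM in siblings, a log2 fold change of -1.30 ± 0.11 (adjusted p = 3.4e-11). Its relative cplx4c, at 4.26 and 2.59 CPM in mutants, against 3.97 and 2.76 CPM in siblings, overlapped between groups (0.05 ± 0.27, adjusted p = 0.895), and the third copy, cplx4b, was the gene with 18 reads in all. The complexin 3 copy cplx3b stood at -0.56 ± 0.16 (adjusted p = 0.0045), with adjusted p up to 0.11 when sibling replicate 2 was left out. Both mutant libraries lay below both sibling libraries for cplx4a and for cplx3b. How many of all genes separate in this way is not given, so here and below a separation adds no support to a call. The other complexin 3 copy, cplx3a, had 15 and 15 reads in mutants, against 7 and 3 reads in siblings; its log2 fold change of 1.54 ± 0.59 (adjusted p = 0.0349) was not called in 5 of the 9 alternatives and was 0.78 without sibling replicate 2 (adjusted p = 0.485) and 2.50 without sibling replicate 1.

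The complexin 2 genes of brain neurons changed little. The gene cplx2 had 57.7 and 59.1 CPM in mutants, against 66.2 and 71.6 CPM in siblings (-0.24 ± 0.09, adjusted p = 0.0344). The related cplx2l had 92.8 and 78.1 CPM in mutants, against 73.4 and 70.8 CPM in siblings (0.25 ± 0.09, adjusted p = 0.0337). The groups did not overlap for either gene and the copies moved in opposite directions, but each call was lost in 4 alternatives: adjusted p reached 0.395 for cplx2 without sibling replicate 2, and 0.302 for cplx2l without mutant replicate 1, where its log2 fold change was 0.11.

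Of the 12 neuronal synaptotagmins, a family that includes the calcium sensors of release, 7 were lower and 0 higher. That is 58.3% lower beside 21.0% of all genes. The largest falls were in the synaptotagmin 5 copies. The gene syt5b had 45.0 and 38.3 CPM in mutants, against 94.3 and 101 CPM in siblings (-1.23 ± 0.10, adjusted p = 8.67e-12). Its copy syt5a had 13 and 11.3 CPM in mutants, against 25.3 and 23.4 CPM in siblings (-1.001 ± 0.13, adjusted p = 2.28e-07). Both copies thus stood at less than their sibling level in each mutant library. The 2 log2 fold changes differed by -0.23 ± 0.16 (SE, taking the 2 estimates as independent, as for the other pairs). In every pair the lower log2 fold change was put first, so the minus sign of such a difference was fixed by that order.

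The fast calcium sensors of central and neuromuscular synapses fell by smaller amounts. The main neuronal sensor, syt1a, had 249 and 256 CPM in mutants, against 326 and 346 CPM in siblings (-0.41 ± 0.08, adjusted p = 0.00015). The gene syt2a, a sensor of fast synapses, had 14.2 and 18.7 CPM in mutants, against 23.3 and 25.3 CPM in siblings (-0.57 ± 0.13, adjusted p = 0.000738). In both genes the lower sibling library lay above the higher mutant library. The gene syt6b (-0.70 ± 0.20, adjusted p = 0.0051) was lower too. The calls of syt3 (-0.42 ± 0.13, adjusted p = 0.00949) and syt9a (-0.48 ± 0.15, adjusted p = 0.00876) were lost in 3 and 2 alternatives, with adjusted p up to 0.0985 and 0.132, both without sibling replicate 2. Without mutant replicate 1, which also lost the call, syt3 was at -0.26. The remaining syt1b, syt6a, syt9b, syt10 and syt12 were not called.

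Synaptotagmins of wider role included 1 large fall. The gene syt7a, a copy of the high-affinity sensor of slow release and of lysosome fusion, had 3.84 and 6.11 CPM in mutants, against 14.8 and 11.8 CPM in siblings (-1.39 ± 0.19, adjusted p = 6.67e-07). Its copy syt7b had 14.8 and 18.6 CPM in mutants, against 18.6 and 19.01 CPM in siblings (-0.17 ± 0.13, adjusted p = 0.32), and the groups overlapped; without mutant replicate 2 it was at -0.34 with an adjusted p of 0.0346, in a range from 0.0346 to 0.906 over the alternatives. The 2 changes differed by -1.22 ± 0.23 (SE). In a RefSeq gene table syt7a lies on the chromosome of tubgcp6, as do cplx3a, sv2, sv2bb, syt9b and syt12, 6 members in all; sorting by tubgcp6 genotype also sorts sequence linked to it, so for these genes an effect of linked sequence and one of the mutation cannot be told apart.

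Of the other synaptotagmins of wider role, syt15 (-0.84 ± 0.22, adjusted p = 0.00251) and syt14a (-0.71 ± 0.20, adjusted p = 0.00593) were called lower. The gene syt15 had 3.78 and 3.25 CPM in mutants, against 5.60 and 6.79 CPM in siblings. Without sibling replicate 2 the calls of both genes were lost, which gave the highest adjusted p over the alternatives, 0.0909 for syt15 and 0.0712 for syt14a; syt14a also lost its call in DESeq2. The genes syt4, syt7b, syt11a, syt11b, syt13, syt14b and syt17 were not called. All 10 tested synaptotagmins of this class had log2 fold changes below 0, from -1.39 to -0.12, beside 9917 of all 20097 genes tested.

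Vesicle membrane proteins of the SV2 family, which support the release readiness of vesicles, were called lower in 3 of 5 genes, beside 21.0% of all genes. The copy sv2ba had 18.2 and 18.8 CPM in mutants, against 41.6 and 41.2 CPM in siblings (-1.16 ± 0.11, adjusted p = 3.85e-10). Its copy sv2bb had 39.9 and 39.1 CPM in mutants, against 59.3 and 63.9 CPM in siblings (-0.64 ± 0.10, adjusted p = 2.41e-06). Both SV2B genes were separated between groups, and reads of sv2ba per read of sv2bb were 0.455 and 0.482 in mutants, against 0.701 and 0.645 in siblings. An exact permutation test of 2 libraries against 2 cannot go below p = 0.333, so no p is given for such ratios. The broadly neuronal sv2a was at -0.33 ± 0.09 (adjusted p = 0.00226), a call lost without sibling replicate 2 (-0.25, with adjusted p up to 0.185). The genes sv2ca and sv2 were not called.

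**Figure D2:**
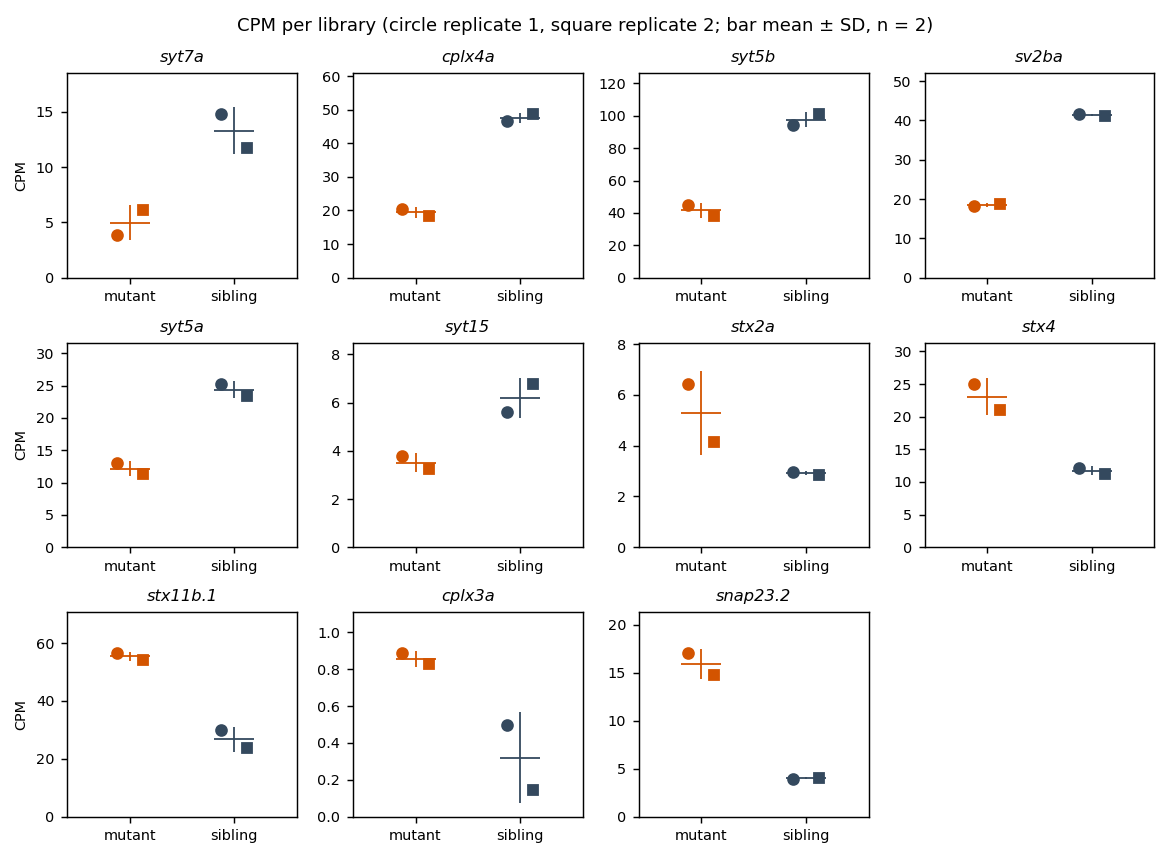
CPM in each library of 11 members called with a log2 fold change of at least 0.8 in size, ordered from the largest fall to the largest rise; circles are replicate 1, squares replicate 2, and bars the mean ± SD (n = 2). At the upper end stands snap23.2 at 15.9 ± 1.6 CPM in mutants, against 4.02 ± 0.0751 CPM in siblings.

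The core neuronal SNAREs moved by copy. The SNAP-25 copy snap25b had 106 and 87.9 CPM in mutants, against 143 and 143 CPM in siblings (-0.57 ± 0.09, adjusted p = 7.76e-06). The copy snap25a had 396 and 352 CPM in mutants, against 356 and 367 CPM in siblings (0.05 ± 0.08, adjusted p = 0.683). Reads of snap25b per read of snap25a were 0.267 and 0.250 in mutants, against 0.402 and 0.390 in siblings, and the 2 log2 fold changes differed by -0.61 ± 0.12 (SE).

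Synaptobrevins showed the same kind of split. The gene vamp2 had 54.9 and 62.0 CPM in mutants, against 85.0 and 83.1 CPM in siblings (-0.52 ± 0.09, adjusted p = 2.84e-05). For vamp1 the values were 86.2 and 79.7 CPM in mutants, against 80.3 and 79.9 CPM in siblings (0.05 ± 0.09, adjusted p = 0.68). The 2 changes differed by -0.57 ± 0.13 (SE), and only the vamp2 values were separated between groups. The syntaxin gene stx1a had only 10 and 14 reads in mutants, against 5 and 9 reads in siblings, and was not called. Syntaxin 3, used by ribbon synapses and by the apical membrane of epithelia, is represented by stx3a, at -0.44 ± 0.13 (adjusted p = 0.00636), with adjusted p up to 0.123 when sibling replicate 2 was left out, where the call was lost.

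RIM genes, the scaffold of the active zone, were lower in 3 of 6 cases, beside 21.0% of all genes. The gene rims1a had 33.9 and 38.4 CPM in mutants, against 55.4 and 57.1 CPM in siblings (-0.64 ± 0.10, adjusted p = 4.69e-06). Its copy rims1b was at -0.59 ± 0.13 (adjusted p = 0.000608), and the 2 changes differed by only -0.05 ± 0.17 (SE). The gene rims2b was at -0.53 ± 0.12 (adjusted p = 0.000624), and its copy rims2a at -0.22 ± 0.10 missed the threshold (adjusted p = 0.0961; 0.0188 without mutant replicate 1, in a range from 0.0188 to 0.517 over the alternatives). The short RIM forms rims3 and rims4 were not called, with log2 fold changes of -0.20 and -0.14. All 6 RIM genes had values below 0, beside 9917 of all 20097 genes tested.

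Vesicle retrieval after fusion is served by AP180, a clathrin adaptor encoded by snap91a and snap91b, which share the name stem but are not SNAREs. The gene snap91b had 72.4 and 76.4 CPM in mutants, against 96.0 and 97.7 CPM in siblings (-0.38 ± 0.09, adjusted p = 0.000714). The gene snap91a had 65.5 and 66.7 CPM in mutants, against 80.05 and 86.8 CPM in siblings. Its change was -0.34 ± 0.09 (adjusted p = 0.00287), and the call was lost without sibling replicate 2, where adjusted p reached its highest value of 0.149. The pair differed by -0.04 ± 0.12 (SE).

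**Figure D3:**
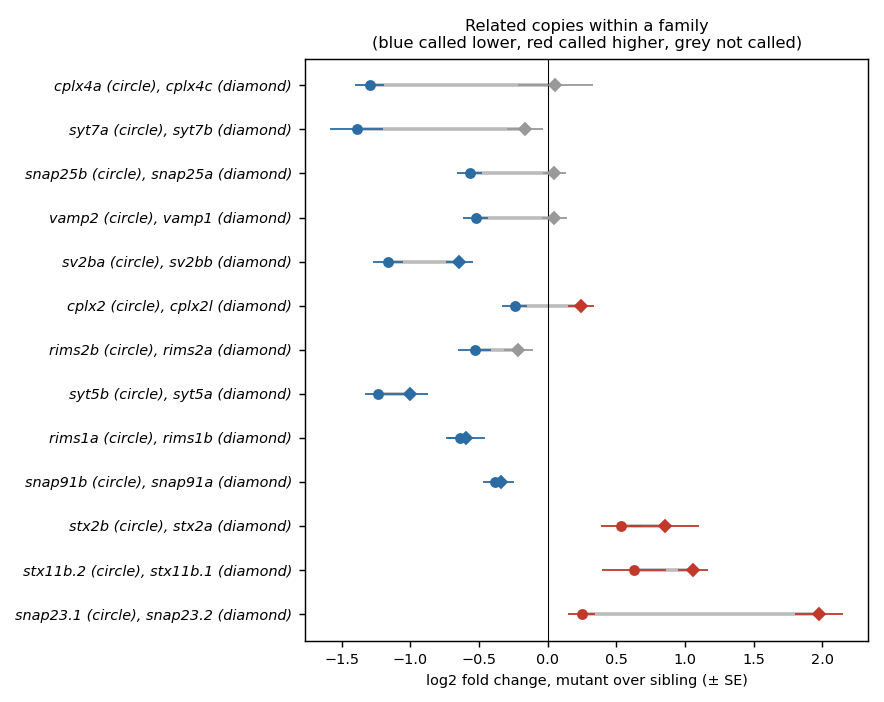
Log2 fold change (mutant over sibling, bar: SE) of both genes in 13 sets of related copies, the lower one as a circle and the other as a diamond; blue marks called lower, red called higher and grey not called. Pairs such as cplx4a and cplx4c, at -1.30 and 0.05, lie far apart, and pairs such as rims1a and rims1b, at -0.64 and -0.59, lie together. The 13 sets were chosen by hand from a larger number. Among those not shown are cplx3b and cplx3a, at -0.56 and 1.54.

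The same direction was seen in presynaptic genes outside these families. Of 66 other presynaptic genes listed, 54 were in the table and 53 were tested; 32 were lower and 1 higher, or 60.4% lower beside 21.0% of all genes, with a median log2 fold change of -0.32. The vesicular glutamate transporter genes slc17a7a (2.01 and 2.31 CPM in mutants, against 7.93 and 8.001 CPM in siblings; -1.88 ± 0.23, adjusted p = 6.35e-08) and slc17a7b (-1.22 ± 0.17, adjusted p = 4.96e-07) fell, a transporter type that loads vesicles in photoreceptors and bipolar cells of the mammalian retina as well as in the brain. The otoferlin copy otofb, of a calcium sensor gene known from hair cells (-1.12 ± 0.12, adjusted p = 2.77e-09), and the Munc13 priming factor gene unc13bb (-0.99 ± 0.13, adjusted p = 3.51e-07) fell as well. The exception was nsfb, 1 of the copies of the ATPase that takes spent SNARE complexes apart, which rose by 0.67 ± 0.11 (adjusted p = 1.61e-05).

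Markers of retinal neurons and of neurons in general moved with the release genes. All 33 tested photoreceptor markers were lower, with a median log2 fold change of -1.57; their summed level was 1641 and 1271 CPM in mutants, against 4207 and 4052 CPM in siblings. None was at 0. The leading markers by p were the rod genes rho (-3.33 ± 0.10), sagb (-2.71 ± 0.12) and gnat1 (-2.60 ± 0.14) and the recoverin gene rcvrn2 (-1.58 ± 0.10). Of 31 markers of other retinal neurons, 22 were lower and 1 higher, or 71.0% and 3.23% beside 21.0% and 22.9% of all genes (median -0.56), with a summed level of 1208 and 1204 CPM in mutants, against 1469 and 1507 CPM in siblings. RNA came from whole embryos, so reads of these 31 genes from outside the retina cannot be told apart. The falls included the bipolar cell gene vsx1 (-1.65 ± 0.13), the ganglion cell gene pou4f2 (-1.29 ± 0.12), pax6b (-0.91 ± 0.11) and gnao1b (-0.79 ± 0.10). The rise was in the glycine transporter gene slc6a9 (0.31 ± 0.08, adjusted p = 0.00338), with adjusted p up to 0.0927 without sibling replicate 1; that call was also lost without sibling replicate 2.

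Of 31 pan-neuronal markers 16 were lower and 3 higher, or 51.6% and 9.68% beside 21.0% and 22.9% of all genes, with a median log2 fold change of -0.22 and a summed level of 2492 and 2641 CPM in mutants, against 2915 and 3022 CPM in siblings. Without sibling replicate 2, where 11.9% of all genes were lower and 14.6% higher, 6 of the 31 were lower and 1 higher. The falls included elavl3 (-0.64 ± 0.09), the neurexin gene nrxn3b (-0.64 ± 0.10), the intermediate filament gene inaa (-0.77 ± 0.14) and the neuronal sodium pump gene atp1a3a (-0.38 ± 0.08). The 3 that were called higher were the neurofilament gene neflb (0.52 ± 0.13), uchl1 (0.48 ± 0.14) and map1b (0.31 ± 0.10). These 3 calls were each lost in 1 or more alternatives, with the highest adjusted p at 0.122 for neflb and 0.147 for map1b, both without sibling replicate 2, and at 0.0965 for uchl1 without sibling replicate 1. The part of these marker shifts in the result for the release genes was not tested. In whole embryos, fewer cells of a type and less RNA per cell cannot be told apart.

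Summed over the class, neuronal and retinal members reached 2174 and 2143 CPM in mutants, against 2635 and 2727 CPM in siblings, a log2 ratio of -0.31. Trafficking members summed to 774 and 724 CPM in mutants, against 632 and 624 CPM in siblings. Neither sum overlapped between groups. Per read of a pan-neuronal marker, the libraries held 0.872 and 0.811 reads of neuronal members in mutants, against 0.904 and 0.902 in siblings, a smaller log2 ratio of -0.10. Per read of a trafficking member they held 2.81 and 2.96 reads of neuronal members in mutants, against 4.17 and 4.37 in siblings, a log2 ratio of -0.57. Both ratios are free of the scaling between libraries.

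**Figure D4:**
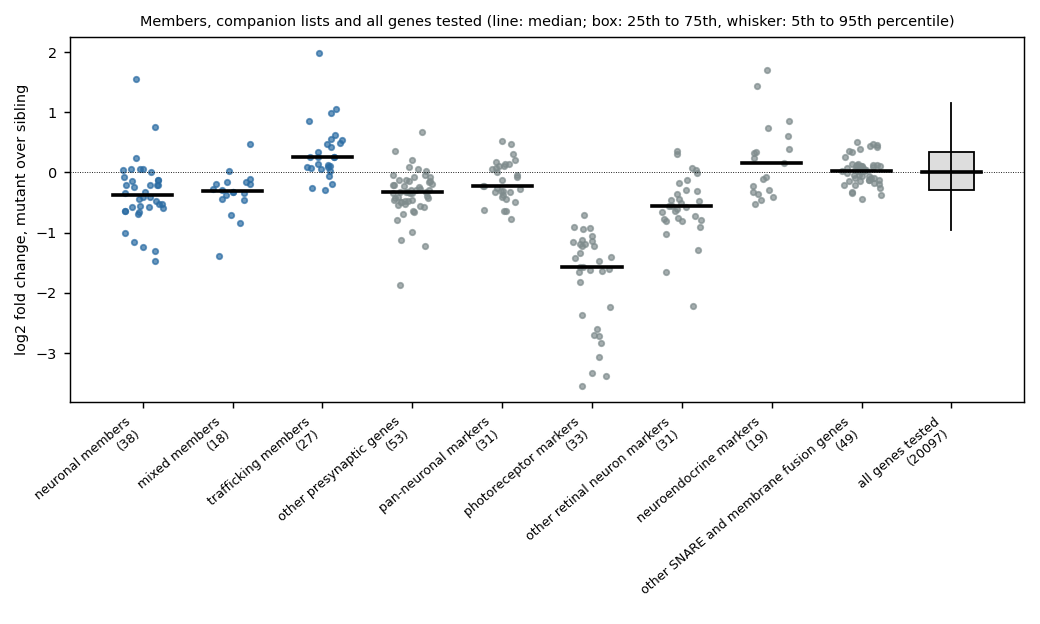
Log2 fold change (mutant over sibling) of each tested gene in the 3 classes of members (blue) and the companion lists (grey), with the number of genes in brackets and the median as a line; at the right, all 20097 genes tested, with a box from the 25th to the 75th percentile (-0.30 to 0.35) and whiskers from the 5th to the 95th (-0.95 to 1.15). Medians run from -1.57 for photoreceptor markers to 0.25 for the trafficking members.

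On the trafficking side, the SNAP-25 relative snap23.2 rose most. SNAP-23 takes the place of SNAP-25 in secretion by non-neuronal cells. The gene snap23.2 had 17.02 and 14.8 CPM in mutants, against 3.97 and 4.07 CPM in siblings (1.98 ± 0.17, adjusted p = 1.07e-10). Its copy snap23.1 had 66.1 and 57.1 CPM in mutants, against 55.3 and 48.5 CPM in siblings (0.25 ± 0.10, adjusted p = 0.0416), a call lost in 6 of the 9 alternatives, with adjusted p up to 0.493 without sibling replicate 2. Reads of snap23.1 per read of snap23.2 were 3.88 and 3.87 in mutants, against 13.9 and 11.9 in siblings, and the 2 log2 fold changes differed by -1.73 ± 0.20 (SE). Without mutant replicate 1 (0.13) and without sibling replicate 2 (0.15), snap23.1 was at under its full value. The relatives snap29, of autophagosome fusion, and snap47 were not called.

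Syntaxins 2, 4 and 11 act at the plasma membrane or in granule release of non-neuronal cells. Of their 6 genes 5 were called higher, and 2 of them kept the call in all 9 alternatives. The 6 were grouped after their values were seen, so their share cannot be set against that of all genes. Of all 17 trafficking syntaxins, 7 were higher and 1 lower, or 41.2% and 5.88% beside 22.9% and 21.0% of all genes. The gene stx11b.1, a copy of syntaxin 11, which serves granule release by immune cells in humans, had 56.5 and 54.2 CPM in mutants, against 29.8 and 23.8 CPM in siblings (1.06 ± 0.11, adjusted p = 2.47e-09). The gene stx4, of the syntaxin that receives glucose transporter vesicles in muscle and fat of mammals, had 25.1 and 21.0 CPM in mutants, against 12.2 and 11.2 CPM in siblings (0.98 ± 0.13, adjusted p = 5.76e-07). Each mutant library stood above each sibling library for both. The copies stx2a, at 6.44 and 4.13 CPM in mutants, against 2.98 and 2.86 CPM in siblings (0.85 ± 0.25, adjusted p = 0.00631), and stx2b (0.54 ± 0.15, adjusted p = 0.00356) were called higher; stx2a lost the call in 3 alternatives, with adjusted p up to 0.163 without mutant replicate 1, where its log2 fold change was 0.50, and stx2b in 1, with adjusted p of 0.0832 without sibling replicate 2 as the highest over the alternatives. The gene stx11b.2 (0.63 ± 0.23, adjusted p = 0.0298) lost its call in 4 alternatives, with adjusted p up to 0.179 in DESeq2, and stx11a was not called (0.14 ± 0.26). Reads that similar copies share make the split within the syntaxin 11 and SNAP-23 copies uncertain.

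Vesicle SNAREs of the general pathways were called higher in 3 of 4 genes, beside 22.9% of all genes, and 1 of the 3 kept the call in all 9 alternatives. The gene vamp8, of endosomes and secretory granules, had 47.4 and 41.2 CPM in mutants, against 33.2 and 30.8 CPM in siblings (0.47 ± 0.10, adjusted p = 0.000502). The gene vamp5, known from muscle, was at 0.55 ± 0.13 (adjusted p = 0.000665) and lost its call without sibling replicate 2, where adjusted p was highest at 0.0706. The recycling endosome gene vamp3 was at 0.26 ± 0.09 (adjusted p = 0.0257), a call lost in 4 alternatives with adjusted p up to 0.278 without sibling replicate 2; without mutant replicate 1 it was at 0.16. The gene vamp4, of the trans-Golgi network, was not called.

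Of the 11 genes of inner-membrane syntaxins, grouped after their values were seen like the 6 above, 2 were called higher and 1 lower. Of all genes, 22.9% were called higher and 21.0% lower, but counts of a group made this way cannot be set against those shares. The autophagosome syntaxin gene stx17 (0.49 ± 0.17, adjusted p = 0.019) and the early secretory pathway gene stx5a (0.34 ± 0.11, adjusted p = 0.0126) were called higher and lost the call in 4 and 2 alternatives, with adjusted p up to 0.131 without mutant replicate 1 for stx17 and up to 0.34 without sibling replicate 2 for stx5a, where stx5a was at 0.23. The endosomal relative stx12l was the 1 trafficking member called lower (-0.29 ± 0.10, adjusted p = 0.0164), a call lost in 3 alternatives (adjusted p up to 0.288 without sibling replicate 2). Golgi and endosome syntaxin genes stx5al, stx6, stx7l, stx8, stx10, stx12 and stx16 and the endoplasmic reticulum gene stx18 were not called, with log2 fold changes from -0.19 to 0.42. The gene stxbp2, of a syntaxin-binding protein of secretory cells, was at 0.25 ± 0.10 (adjusted p = 0.0397), a call lost in 6 alternatives with adjusted p up to 0.334 without sibling replicate 1, and at 0.16 without mutant replicate 1. The gene stxbp3, of a partner of syntaxin 4, was not called, at 0.02 ± 0.10.

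Most genes of membrane fusion and tethering outside these families were not called. Of 51 such genes listed, 49 were tested, 6 were higher and 3 lower. That is 12.2% and 6.12%, beside 22.9% and 21.0% of all genes. Their median log2 fold change was 0.03. The exocyst subunit genes exoc6b (0.46 ± 0.11, adjusted p = 0.00151) and exoc7 (-0.44 ± 0.10, adjusted p = 0.000455) moved in opposite directions. The Golgi tether gene cog4 (0.43 ± 0.12, adjusted p = 0.00571) and the endoplasmic reticulum SNARE gene bnip1b (0.43 ± 0.13, adjusted p = 0.00945) were called higher and lost the call in 2 and 3 alternatives, with adjusted p up to 0.112 and 0.105, both without sibling replicate 1. Fewer genes of this list were called when either sibling replicate was left out, as was true of all genes.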

How the data were processed

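Whole-embryo RNA was sequenced, and the authors deposited raw counts of reads per gene as whole numbers in a single table. According to the submitters' processing notes, which give no role for each tool, DESeq2 1.26.0, R 4.2.2, featureCounts 2.0.1, STAR 2.7.10a and fastp 0.23.2 were used with the build GRCz11. Neither annotation nor strand setting nor the handling of multiply mapped reads is given in the sources used here, so the split of reads between similar copies or overlapping genes is uncertain.

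The counts were fitted as deposited in R 4.3.3 with edgeR 4.0.16: filterByExpr at its defaults (3139 of 23236 rows removed), TMM scaling, glmQLFit with legacy=FALSE and glmQLFTest, mutants against siblings, two-sided, with Benjamini-Hochberg adjustment over all 20097 genes tested and a threshold of 0.05. All adjusted p-values in the text come from this quasi-likelihood test unless DESeq2 is named. An SE is the log2 fold change, without its sign, over the root of F. CPM values use the TMM-scaled library sizes; levels were not compared between genes. The 9 alternatives were DESeq2 1.42.0, RLE size factors, no scaling factors, no filter on low counts, the replicate number as a block, and leaving out each library in turn; a group left with 1 library is assumed to vary like the other. The fit was checked on simulated counts. It called 10.4% of changes of 1.25-fold, 65.9% of changes of 1.5-fold and 0.0375% of unchanged genes. Only 200 genes were changed per simulation, so these shares need not hold for the data. A gene that was not called is thus not shown to be unchanged. Between the replicates of a group, chi-square per degree of freedom was 5.34 in mutants and 2.63 in siblings, above counting noise.

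Members, their classes and the companion lists, written from general knowledge mostly of mammals, were chosen with earlier results of these data known. Values in every library were to be given for members called with a log2 fold change of at least 0.8 in size and for the 4 members of smallest p in each other class, with their copies; further copies and called members were added after their values were seen. Of each list up to 4 genes of smallest p are named. Genes called against the median are all named for the other presynaptic, pan-neuronal and other retinal lists. They are not all named for the lists of other SNARE and fusion genes and of neuroendocrine markers. Of the 83 members 80 matched a symbol and 2 a synonym in a RefSeq table of assembly GRCz12tu, used only for names and for which genes share a chromosome with tubgcp6. A few members are counted in their class but not reported by name here. Of 237 list entries 217 were in the table.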

Additional observations from a re-analysis of the deposited data

How the results depend on the processing

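DESeq2 called 2926 genes lower and 3216 higher over the whole table. Without sibling replicate 2 there were 2429 lower and 2977 higher, and over the 4 fits that leave out a library the calls ranged from 2429 to 4680 lower and 2977 to 4840 higher. Over the same fits neuronal members called higher ranged from 0 to 1, trafficking members called lower from 0 to 2 and higher from 4 to 12, and mixed members called lower from 3 to 11 and higher from 0 to 1. The trafficking median ranged from 0.163 to 0.337. Among lists the ranges were 18 to 37 lower and 1 to 2 higher for other presynaptic genes, 1 to 3 lower and 1 to 6 higher for other SNARE and fusion genes, 6 to 16 lower and 1 to 3 higher for pan-neuronal markers, 0 to 2 higher for other retinal markers and 1 to 5 lower for neuroendocrine markers. DESeq2 called 14.1% of all genes lower and 15.5% higher. Beside these shares it called 0 neuronal, 6 trafficking (22.2%) and 0 mixed members higher, and 0 trafficking and 5 mixed (27.8%) members lower. It called 1 lower and 1 higher among other SNARE and fusion genes, 1 pan-neuronal marker higher and 3 neuroendocrine markers lower. With no filter on low counts 1 neuronal member was higher, or 2.63% beside 19.8% of all genes. With the mixed members added to the trafficking class, 9 of 45 were lower in the main fit, a share just under the 21.0% of all genes. In that joined class 14 were higher, or 31.1% beside 22.9% of all genes, and the median was 0.0597. The calls over all genes moved too over the fits that leave out a library, so the ranges above do not by themselves set a class or list apart. The cause of these shifts was not tested.

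Some members changed sign when 1 library was left out. Among them were stxbp4, which ranged from -0.724 to 0.0286, and sv2ca, from -0.51 to 0.222. Others were cplx4c (-0.342 to 0.381), snap25a (-0.0485 to 0.127) and stx11a (-0.227 to 0.436). So did stx5al (-0.185 to 0.0387), stxbp6l (-0.0363 to 0.0806) and vamp1 (-0.0164 to 0.105), and the list is not complete. None of those named was called in any fit. The log2 ratio of the summed neuronal members stayed between -0.338 and -0.288, an alternative added after the data were seen, and was -0.325 with RLE size factors.

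The replicate numbers are shared between groups, but whether samples of the same number share a clutch or batch is not given. The difference of replicate 1 from 2 in mutants correlated with that in siblings at 0.0182 over genes. Each group gives only 1 such difference, so this value cannot decide whether the samples were paired. With the replicate number as a block, 4521 genes were lower and 4827 higher over the whole table, or 22.5% and 24.0%. Under the block 21 neuronal members were lower (55.3%) and 14 trafficking members higher (51.9%). All 46 called members kept their call under the block.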

Other observations

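Genes of peptide-secreting endocrine cells, which use the same fusion machinery for dense-core vesicles, had shares of calls near those of all genes. Of 19 tested neuroendocrine markers 6 were lower and 5 higher, or 31.6% and 26.3% beside 21.0% and 22.9% of all genes. Their median log2 fold change was 0.15. Fewer of them were called lower without sibling replicate 2, as was true of all genes. The glucagon genes gcga, at 11.4 and 9.58 CPM in mutants, against 4.96 and 3.06 CPM in siblings (1.44 ± 0.21, adjusted p = 1.43e-06), and gcgb (1.70 ± 0.22, adjusted p = 1.71e-07) were higher, as was the somatostatin gene sst1.1 (0.85 ± 0.12, adjusted p = 5.47e-07). The granule gene scg3, of a secretogranin, was lower, at 85.4 and 78.1 CPM in mutants, against 113 and 111 CPM in siblings (-0.45 ± 0.09, adjusted p = 9.58e-05). The summed level of the list was 865 and 833 CPM in mutants, against 944 and 974 CPM in siblings.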
